A study of Mus musculus with 10 samples.

Results

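The small leucine-rich proteoglycans followed here were 9 genes, Dcn, Bgn, Aspn, Fmod, Lum, Prelp, Omd, Ogn and Podn, out of 45706 genes in the deposited tables. They were taken by gene symbol, not by their values, and all 9 were found in each of the 10 libraries' tables. In cells induced towards pluripotency for 3 days, 7 of the 9 were lower than in uninduced fibroblasts, while Fmod and Prelp were 9.74-fold and 8.82-fold higher. These 2 groups also differed in medium and in sex-linked RNA, as given below. All 9 were then lower at day 6 than at day 3. In embryonic stem cells Bgn was again the most abundant member by far.

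Small leucine-rich proteoglycans are secreted matrix proteins built from a short core of leucine-rich repeats, most of which carry chondroitin, dermatan or keratan sulfate chains. They bind collagen fibrils and set how fibrils grow and pack, and several also bind growth factors such as TGF-beta or cell surface receptors. The family is sorted into classes by the cysteines near the N terminus and by exon structure. Fibroblasts are a main source of these proteins in connective tissue, and pluripotent cells lay down little fibrillar matrix.

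RNA was measured by stranded poly(A) sequencing in 5 groups of 2 libraries each, all from mouse cells of a C57BL/6 x 129 background. Embryonic fibroblasts (MEF) carried the factors Oct4, Klf4, Sox2 and Myc (OKSM) as a cassette in the Col1a1 locus and the M2rtTA transactivator in the Rosa26 locus, and were grown in fibroblast medium with no doxycycline. The day 3, day 6 and day 9 groups carried the same alleles and were kept in ESC medium, which holds LIF at 1000 U/ml, with doxycycline at 1 µg/ml, which turns the cassette on, and ascorbic acid at 50 µg/ml. Cells at day 3 were unsorted, and those at day 6 and day 9 had been sorted for the surface epitope SSEA1, so day 6 differs from day 3 in both time and selection. The reference was V6.5, an embryonic stem cell (ESC) line without the cassette, grown unsorted on irradiated feeder cells in the same ESC medium. The feeders could add RNA to the ESC libraries. MEF and day 3 differ in medium (LIF included), doxycycline and ascorbic acid together, and these cannot be told apart. In bulk RNA, fewer cells of a type and less RNA per cell cannot be told apart either. Nothing says that the 2 libraries of a group came from separate cultures or animals, so the p-values measure only the spread between these libraries.

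Libraries held 29585876 to 38275024 estimated reads. The marker lists ran with the labels: the summed level of 10 fibroblast markers was 2700 to 2760 TPM (reads per length, scaled to 1 total) in MEF, 210 to 214 at day 3, 40.2 to 40.8 at day 6, 33.2 to 34.3 at day 9 and 424 to 458 in ESC, and the sum of 8 pluripotency markers went from 0.594 to 0.815 TPM in MEF to 2620 to 2650 TPM in ESC. At day 6 the fibroblast marker Dpt was at 0 in both libraries. Markers of other cells that make these proteoglycans were at most 4.73 TPM in sum for chondrocytes (MEF), 38.9 for osteoblasts (ESC, of which Alpl was 37.4) and 81.1 for smooth muscle cells and pericytes (MEF, 4.05 at most at day 3), while tenocyte markers summed to at most 352 TPM in MEF, of which Egr1 was 299. Endothelial markers reached 22.4 TPM (ESC), haematopoietic markers 152 TPM (day 6, of which Laptm5 was 147) and keratinocyte markers 1.8 TPM (day 9). The MEF libraries also differed from the induced ones in sex-linked RNA: Xist was at 0.739 and 0.793 CPM (reads scaled for library size) in MEF and 930 and 1090 at day 3, and Ddx3y at 90.6 and 86.4 CPM in MEF and 0.0538 and 0.0887 at day 3. The cell preparation and the treatment therefore cannot be told apart between MEF and the induced groups.

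Most members sit in gene clusters (GRCm38, GENCODE M21 coordinates). Fmod (chr1:134037254-134048277, plus strand) and Prelp (chr1:133910304-133921414, minus strand) lie 115.8 kb apart on chromosome 1, with their starts facing each other. Dcn (chr10:97479609-97518143) and Lum (chr10:97565128-97572703) are 47.0 kb apart on chromosome 10, both on the plus strand. Aspn (chr13:49544443-49567565), Omd (chr13:49582462-49592822) and Ogn (chr13:49608046-49624501) follow each other on the plus strand of chromosome 13 with gaps of 14.9 and 15.2 kb, inside the span of Cenpp, which is read from the opposite strand. Bgn is on chromosome X (chrX:73483602-73495933, plus strand), and Podn on chromosome 4 (chr4:108014791-108096445, minus strand), where its annotated span overlaps that of Scp2 on the same strand. Exon number follows class: 8 exons in the class I genes Dcn, Bgn and Aspn, 3 in the class II genes Fmod, Lum, Prelp and Omd, 7 in Ogn of class III and 12 in Podn of class V.

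The 250 bases before the RefSeq start of a gene are shown for the pair that rose together at day 3. They are also shown for the 3 members with the largest rise from day 9 to ESC among those with a window (RefSeq, GRCm38.p6, 5′ to 3′ on the gene's strand). RefSeq starts differ from the GENCODE M21 starts above for some genes. The Prelp and Podn windows overlap the GENCODE spans of their genes, and the Bgn and Ogn windows end short of theirs. Capitals mark matches to 4 motifs on either strand, and overlapping matches run together. The KLF type motif, CCNCNCCC, was in 45.9% of 32817 mouse windows of the same length. The AP-1 type motif, TGANTCA, was in 6.75% of them. The TEAD type motif, GGAATG, was in 12.6%. The TATA type motif, TATAAA, was in 12.4%. 7 of the 9 members had a window; Dcn and Lum had none.
Fmod, chr1:134037004-134037253, plus strand: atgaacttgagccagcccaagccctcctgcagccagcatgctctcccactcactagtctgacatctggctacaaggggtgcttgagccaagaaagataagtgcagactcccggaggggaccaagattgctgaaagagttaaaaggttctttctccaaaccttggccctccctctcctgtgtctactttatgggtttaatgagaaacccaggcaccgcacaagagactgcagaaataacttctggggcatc
Prelp, chr1:133921402-133921651, minus strand: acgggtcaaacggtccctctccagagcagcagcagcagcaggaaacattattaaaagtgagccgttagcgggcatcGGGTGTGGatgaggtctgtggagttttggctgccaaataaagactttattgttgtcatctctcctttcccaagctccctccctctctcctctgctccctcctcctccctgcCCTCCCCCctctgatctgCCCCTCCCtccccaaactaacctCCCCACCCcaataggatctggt
Bgn, chrX:73483351-73483600, plus strand: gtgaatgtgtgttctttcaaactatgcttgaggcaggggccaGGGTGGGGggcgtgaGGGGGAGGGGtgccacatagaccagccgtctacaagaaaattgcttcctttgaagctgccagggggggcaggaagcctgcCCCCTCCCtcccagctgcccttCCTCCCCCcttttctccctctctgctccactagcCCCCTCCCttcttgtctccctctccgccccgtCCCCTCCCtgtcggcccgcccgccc
Aspn, chr13:49544193-49544442, plus strand: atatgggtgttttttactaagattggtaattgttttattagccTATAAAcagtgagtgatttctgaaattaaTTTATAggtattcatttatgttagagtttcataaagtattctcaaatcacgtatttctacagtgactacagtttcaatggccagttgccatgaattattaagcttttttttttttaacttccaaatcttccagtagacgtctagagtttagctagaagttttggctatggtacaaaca
Ogn, chr13:49607765-49608014, plus strand: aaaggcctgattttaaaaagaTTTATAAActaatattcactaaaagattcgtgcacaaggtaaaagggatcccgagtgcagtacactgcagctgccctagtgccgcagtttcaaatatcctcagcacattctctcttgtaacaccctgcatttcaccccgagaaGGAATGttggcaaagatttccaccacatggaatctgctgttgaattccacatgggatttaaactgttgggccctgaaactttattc
The Fmod window held none of the 4 motifs, while the Prelp window held 4 KLF type matches, the nearest ending 15 bases before the RefSeq start. The Bgn window held 7 KLF type matches, of which those at 193 to 186 and 191 to 184 bases before the start overlap. The Aspn window held 2 TATA type matches, and the Ogn window 1 TEAD type and 2 overlapping TATA type matches. The 2 Podn windows held 4 and 3 KLF type matches, the Omd window held no match, and no member's window held the AP-1 type letters. With no match in the Fmod window, none could be shared with Prelp, and other motifs or longer windows were not tested.

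Class I was led by Bgn, the gene of biglycan, a proteoglycan that binds collagen and also signals through toll-like receptors when released from the matrix. Bgn stood at 2833 and 2822 TPM in MEF, 276 and 279 at day 3, 5.37 and 5.70 at day 6, 4.19 and 4.90 at day 9, and 449 and 443 in ESC. MEF libraries were the highest, the sorted day 6 and day 9 libraries the lowest, and no 2 groups overlapped. The coding transcript Bgn-001 was 1229 and 1197 of the MEF TPM. Most of the rest lay on the short transcripts Bgn-009 and Bgn-006, which are not annotated as protein-coding. Dcn, the gene of decorin, which binds type I collagen fibrils and TGF-beta, stood at 41.4 and 42.7 TPM in MEF, 2.36 and 2.56 at day 3, 0.618 and 0.477 at day 6, 1.10 and 0.979 at day 9, and 1.15 and 1.38 in ESC. Dcn was therefore lowest at day 6, and its day 9 and ESC libraries lay close together. Aspn, the gene of asporin, which has an aspartate-rich stretch and binds collagen and TGF-beta, stood at 160 and 157 TPM in MEF, 0.758 and 0.988 at day 3, 0.0394 and 0.0670 at day 6, 0.0541 and 0.0836 at day 9, and 4.91 and 5.11 in ESC. The day 6 and day 9 values of Aspn rest on 6 to 16 reads a library and overlap.

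Class II split in its time course. Fmod, the gene of fibromodulin, which binds type I collagen and steers its cross-linking, stood at 27.0 and 27.5 TPM in MEF, 270.3 and 271 at day 3, 21.8 and 21.9 at day 6, 9.33 and 10.1 at day 9, and 0.466 and 0.566 in ESC. Prelp, the gene of a proteoglycan with an arginine- and proline-rich end that binds heparan sulfate, stood at 8.02 and 7.82 TPM in MEF, 65.6 and 69.4 at day 3, 5.31 and 5.41 at day 6, 1.86 and 1.81 at day 9, and 0.252 and 0.236 in ESC. For both genes the day 3 libraries were above all other libraries and the ESC libraries below all others. The ratio of Fmod to Prelp in TPM was 3.37 and 3.52 in MEF, 4.12 and 3.90 at day 3, 4.10 and 4.04 at day 6, 5.01 and 5.57 at day 9, and 1.85 and 2.40 in ESC, so the ratio stayed between 1.85 and 5.57 while Fmod itself ran from 0.466 to 271 TPM.

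The other class II genes fell. Lum, the gene of lumican, which orders collagen in cornea and skin, stood at 7.72 and 8.32 TPM in MEF, 0.378 and 0.316 at day 3, 0.0225 and 0 at day 6, 0 and 0 at day 9, and 0.0473 and 0.140 in ESC. Omd, the gene of osteomodulin, a proteoglycan of mineralized tissue, stood at 1.98 and 2.03 TPM in MEF, 0.245 and 0.237 at day 3, 0.0209 and 0.0107 at day 6, 0.0323 and 0 at day 9, and 0.0110 and 0.0294 in ESC. From day 6 on, Omd had at most 3 reads in a library and Lum at most 3 at day 6 and day 9 and 6 and 20 in ESC, so values there are near the limit of detection: 3 reads are 0.0849 CPM in an average day 9 library.

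In class III, Ogn encodes osteoglycin, also called mimecan, a small member found in many connective tissues. Ogn stood at 32.8 TPM in both MEF libraries, 1.37 and 1.57 at day 3, 0.0776 and 0.0304 at day 6, 0.0798 and 0.0574 at day 9, and 3.94 and 4.32 in ESC. As with Bgn and Aspn, the ESC libraries of Ogn lay above all libraries of the induced cells and below those of MEF. In class V, Podn encodes podocan, a collagen-binding member, and stood at 15.7 and 10.5 TPM in MEF, 1.09 and 1.64 at day 3, 0.609 and 0.383 at day 6, 0.449 and 0.552 at day 9, and 0.817 and 1.27 in ESC. Its 2 MEF libraries differ more in TPM than in reads (1364.5 and 1482.9), and its reads were split among 8 annotated transcripts whose shares changed from library to library. The TPM values of Podn are therefore less certain than its reads, and the TPM of Bgn also depends on short transcripts, as given above.

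**Figure D1:**
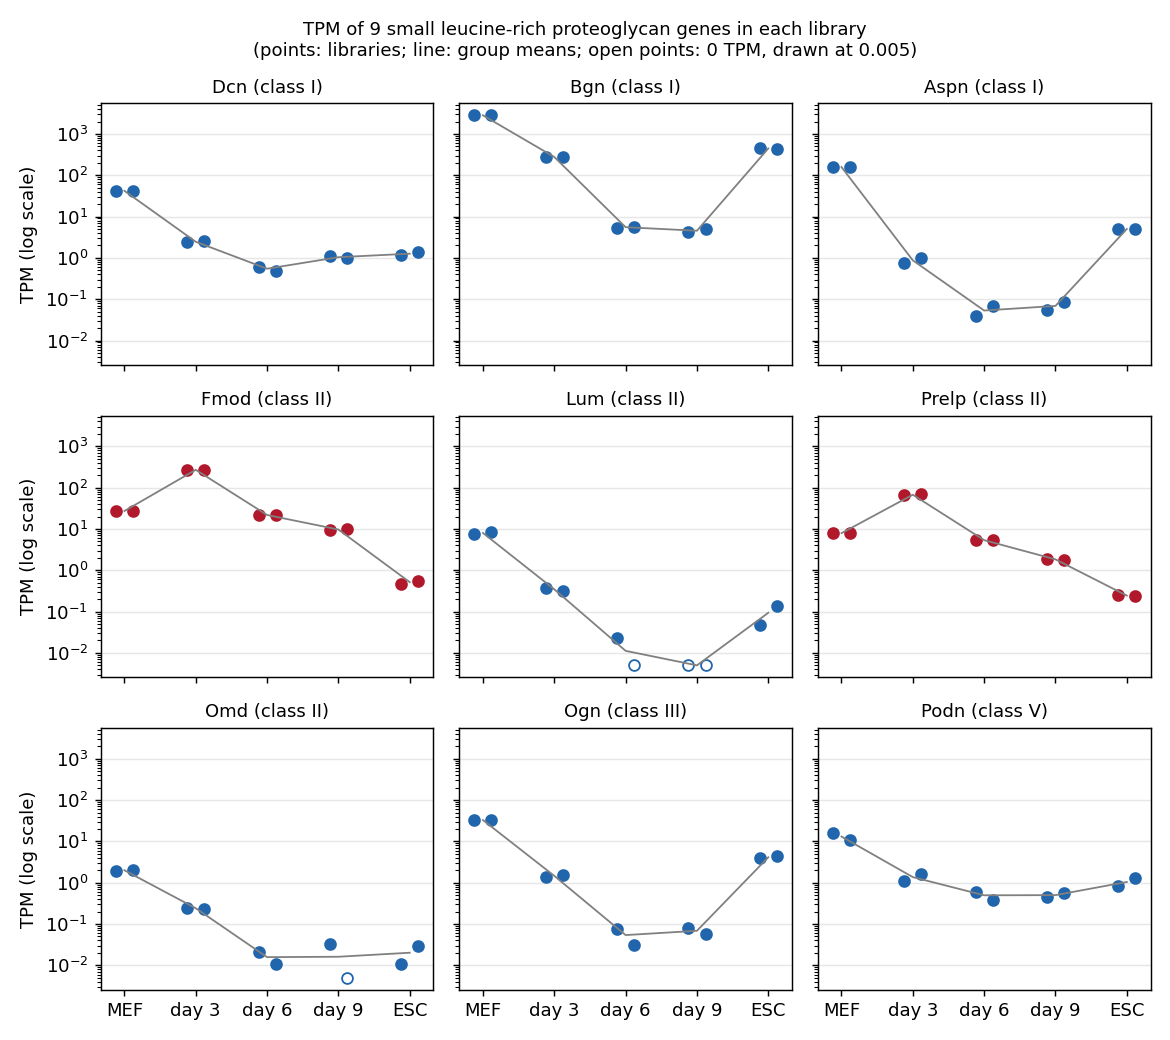
Each panel plots 1 gene's TPM on a log axis in the 10 libraries (points) by group, with a line through the group means; open points are libraries at 0 TPM, drawn at 0.005. Fmod and Prelp (red) peak at day 3, at 270.3 to 271 and 65.6 to 69.4 TPM, while the other 7 genes (blue) are highest in MEF and Bgn, Aspn, Ogn and Lum are called above their day 9 level in ESC.

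The makeup of the family changed with its total. The summed TPM of the 9 members was 3128 and 3111 in MEF, 618 and 627 at day 3, 33.8 and 34.0 at day 6, 17.1 and 18.5 at day 9, and 461 and 456 in ESC. Bgn was 90.6% and 90.7% of that sum in MEF, 44.7% and 44.5% at day 3, 15.9% and 16.8% at day 6, 24.5% and 26.5% at day 9, and 97.5% and 97.1% in ESC. Fmod and Prelp together were 1.12% and 1.14% in MEF, 54.3% in both day 3 libraries, 80.0% and 80.4% at day 6, 65.5% and 64.4% at day 9, and 0.156% and 0.176% in ESC. The family was thus mostly Bgn at both ends and mostly Fmod and Prelp in the induced cells. In MEF the order of levels was Bgn, Aspn, Dcn, Ogn, Fmod, Podn, then Lum and Prelp, whose libraries overlapped, and Omd. At day 3 it was Bgn and Fmod, which were close (means of 278 and 271 TPM) but did not overlap, then Prelp, Dcn, then Ogn and Podn with overlapping libraries, Aspn, Lum and Omd. This rank of Bgn rests on its short transcripts Bgn-009 and Bgn-006, which are not annotated as protein-coding. Its coding transcript Bgn-001 alone stood at 119.9 and 121.0 TPM at day 3, under Fmod. The Bgn shares above count all its transcripts. In the sorted cells Fmod came first, and at day 6 Bgn and Prelp overlapped behind it. By coding transcripts alone, Prelp-001 (3.65 and 3.97 TPM) lay above Bgn-001 (2.95 and 2.77 TPM) at day 6. In ESC the order was Bgn, Aspn, Ogn, then Dcn and Podn with overlapping libraries, Fmod, Prelp, Lum and Omd.

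Groups were compared with edgeR's quasi-likelihood test. A gene counted as called when its p-value, after Benjamini-Hochberg adjustment over all tested genes, was under 0.05 and its log2 fold change was 1 or more in size. All 9 members were among the 20165 genes that passed the filter on low counts. Omd reached the filter's level of 0.299 CPM in MEF and day 3 libraries only, and Lum in those and in 1 ESC library, so a fall of these genes was built into their being tested. The counts of members below are a description for that reason.

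From MEF to day 3, 7 members fell and Fmod and Prelp rose, where 14.5% of all tested genes were called lower and 14.6% higher. Fmod rose by 3.28 on the log2 scale (SE 0.05, edgeR adjusted p = 3.6e-16) and Prelp by 3.14 (SE 0.04, adjusted p = 7.6e-17). The largest fall was that of Aspn, at -7.54 (SE 0.07, edgeR adjusted p = 3.9e-18). Lum at -4.55 (SE 0.22), Ogn at -4.52 (SE 0.08) and Dcn at -4.13 (SE 0.07) came next. Bgn at -3.36 (SE 0.03), Podn at -3.20 (SE 0.11) and Omd at -3.07 (SE 0.36) fell least. The median log2 fold change was -3.36 over the members and 0.08 over all tested genes. Fibroblast markers moved the same way, with 7 of 10 called lower and none higher, and their part in the fall of the 7 members was not tested. The rise of Fmod and Prelp ran against that list. Since Bgn is X-linked, the difference in Xist between MEF and day 3 stands beside its value. The part of that difference in the fall of Bgn was not tested.

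From day 3 to day 6, all 9 members fell, where 10.2% of tested genes were called lower and 9.26% higher. Bgn fell most, at -5.43 on the log2 scale (SE 0.04, edgeR adjusted p = 4.1e-18), from a mean of 278 TPM to 5.54 TPM. Fmod changed by -3.63 (SE 0.05) and Prelp by -3.91 (SE 0.04), which put their day 6 libraries below those of MEF. Mean levels at day 6 and in MEF were 21.8 and 27.3 TPM for Fmod, and 5.36 and 7.92 TPM for Prelp. Ogn changed by -4.72 (SE 0.22), Aspn by -4.01 (SE 0.24) and Dcn by -2.14 (SE 0.13), while Podn changed least, by -1.32 (SE 0.16, edgeR adjusted p = 7.6e-06). Lum went from 97 reads to 3 and Omd from 48 to 3, ratios of 30.6 (95% interval 10.2 to 151) and 15.1 (4.87 to 75.9) that cover counting error only. Under limma on log2(TPM + 1), a scale that shrinks changes of genes under 1 TPM, only 5 of the 9 were called lower. The median was -3.91 over the members and 0.03 over all tested genes. SSEA1 sorting began between these time points, and 9 of 10 fibroblast markers were also called lower; how much of the fall came from sorting was not tested.

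From day 6 to day 9, only Fmod and Prelp passed both thresholds, and both fell, where 2.68% of tested genes were called lower and 5.18% higher. Fmod changed by -1.08 (SE 0.05, edgeR adjusted p = 9.6e-10) and Prelp by -1.10 (SE 0.05, adjusted p = 1.5e-09), just past the fold minimum. With protein-coding transcripts only, Prelp changed by -0.98 and was not called. Dcn, at 0.94 (SE 0.16, edgeR adjusted p = 3e-04), was just short of that minimum; it was called without day 6 replicate 1 and without day 9 replicate 2, with log2 fold changes up to 1.13. Bgn changed by -0.48 (SE 0.05, adjusted p = 8.2e-06), less than the fold minimum. Podn changed by 0.48 (SE 0.18, adjusted p = 0.055). Aspn, Lum, Omd and Ogn, with at most 16 reads in a library of either group, had adjusted p-values from 0.21 to 0.99, and a difference was not detectable at this depth.

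From day 9 to ESC the members parted again. Bgn, Aspn, Lum and Ogn were higher in ESC and Fmod and Prelp lower, where 18.6% of tested genes were called higher and 14.3% lower. Bgn differed by 6.51 (SE 0.04, edgeR adjusted p = 8.5e-19), Aspn by 5.99 (SE 0.14) and Ogn by 5.78 (SE 0.16). ESC and day 9 also differed in sex-linked RNA, with Xist at -6.73 (SE 0.09) and Ddx3y at 8.01 (SE 0.14). Bgn is X-linked, and the part of this difference in its value was not tested. Lum had 26 reads in ESC and none at day 9, at least 4.29-fold higher against a floor of 3 reads per library, with an edgeR adjusted p of 6.7e-04. Under limma on log2(TPM + 1) or log2(TPM + 0.1), Lum was not called, at 0.13 and 0.91. Fmod differed by -4.37 (SE 0.08, edgeR adjusted p = 6.4e-15) and Prelp by -3.03 (SE 0.09, adjusted p = 9e-13). Dcn at 0.21 (SE 0.16), Omd at 4 reads against 3 and Podn at -0.15 were not called. The median was 0.36 over the members and 0.00 over all tested genes.

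**Figure D2:**
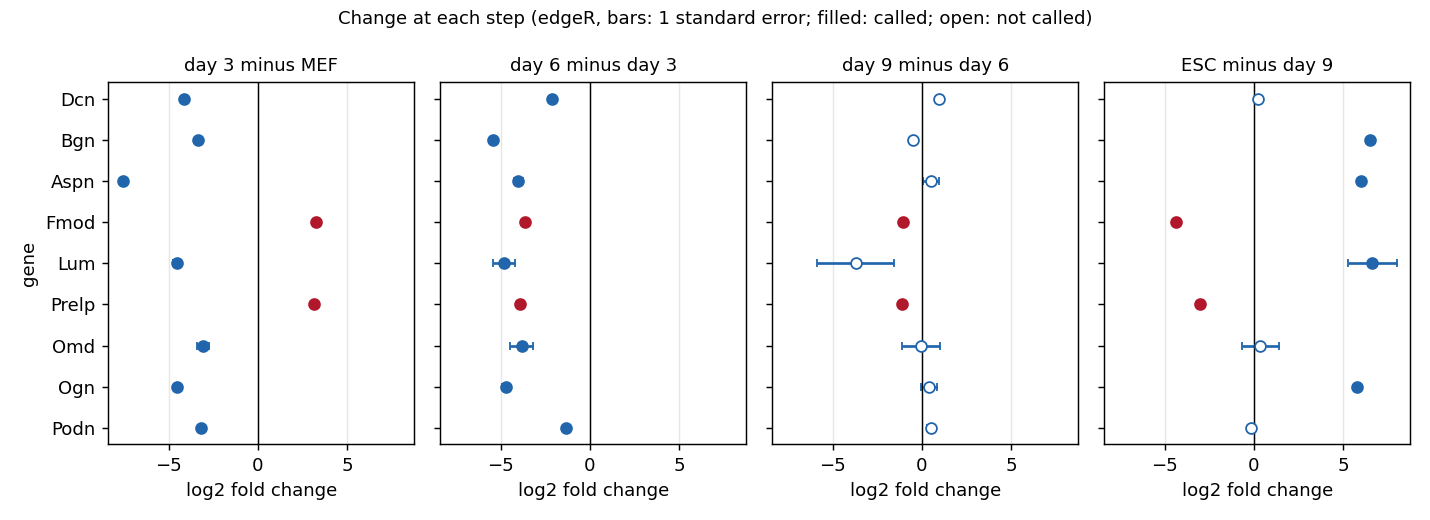
Log2 fold change of each member at the 4 successive steps on 1 shared axis, with bars of 1 standard error; filled points passed both thresholds and open points did not, and Fmod and Prelp are in red. Fmod and Prelp lie at 3.28 and 3.14 from MEF to day 3, opposite to the other 7, and at -4.37 and -3.03 from day 9 to ESC, opposite to Bgn, Aspn, Lum and Ogn; the Lum points at the last 2 steps are fitted against day 9 libraries without reads and are no measure of size.

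Against MEF, every member was lower both at day 9, where 19.8% of tested genes were called lower and 24.1% higher, and in ESC, where 20.6% were called lower and 25.5% higher. These comparisons share the MEF libraries. At day 9, Aspn was 2110-fold lower, Bgn 616-fold, Ogn 460-fold, Dcn 40.2-fold and Podn 16.4-fold, whereas Prelp was 3.65-fold and Fmod 2.68-fold lower. Lum was at least 378-fold lower, with no read in either day 9 library, and Omd went from 343 reads to 3, a ratio of 135 (95% interval 45.8 to 658). In ESC the order differed: Omd at a log2 fold change of -6.58 (SE 0.52), Lum at -6.45 (SE 0.27) and Fmod at -5.79 (SE 0.08) were lowest relative to MEF, and Bgn at -2.75 (SE 0.03) and Ogn at -3.07 (SE 0.07) the least lowered.

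The ESC level of the members was set beside that of fibroblast genes, since feeder cells shared the dish with the ESC. As a percent of the MEF mean CPM, ESC libraries held 14.8% for Bgn, 11.9% for Ogn, 5.47% for Podn, 3.35% for Prelp, 2.99% for Aspn, 2.87% for Dcn, 1.80% for Fmod, 1.11% for Lum and 0.959% for Omd. The 10 fibroblast markers held from 2.18% (Pdgfra) to 67.3% (Pdpn), with a median of 9.02%, and Col1a1 held 9.30%, Col1a2 8.88% and Col3a1 5.29%. Of the markers, Postn held 8.37%, Thy1 14.0% and Fbln2 28.4%. Bgn, Ogn and Podn thus lay within the range of the fibroblast markers, as did Aspn, Prelp and Dcn near its lower end, and Fmod, Lum and Omd lay below it. At day 9, before which cells had been sorted, the summed fibroblast markers were 33.2 to 34.3 TPM, of which Pdpn was 24.1, against 424 to 458 TPM in ESC. The part of feeder cell RNA in the ESC values of the members was not tested.

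**Figure D3:**
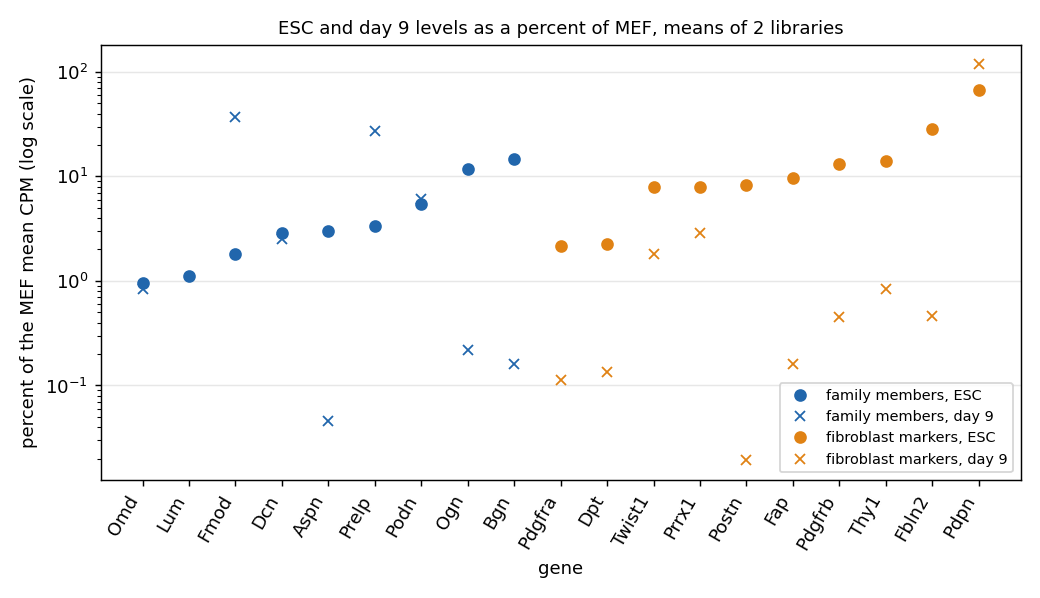
Mean CPM in ESC (circles) and at day 9 (crosses) as a percent of the MEF mean, on a log axis, for the 9 members (blue) and 10 fibroblast markers (orange), means of 2 libraries; Lum has no cross because it had no reads at day 9. In ESC the members run from 0.959% (Omd) to 14.8% (Bgn) and the markers from 2.18% (Pdgfra) to 67.3% (Pdpn).

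Within the gene clusters, neighbours did not all move alike. On chromosome 1, the long noncoding RNA gene Gm1627, which lies between Prelp and Fmod, stood at 0.0369 and 0.0915 CPM in MEF, 1.75 and 1.98 at day 3, 3.23 and 4.39 at day 6, 2.54 and 2.30 at day 9, and 0.0589 and 0 in ESC. It rose with Prelp and Fmod from MEF to day 3 (log2 fold change 4.73, SE 0.50, edgeR adjusted p = 1.1e-06), but differed by 1.03 upward from day 3 to day 6, when both fell. The next gene past Fmod, the cell cycle regulator Btg2, was not called from MEF to day 3 (0.13), nor was the family gene Optc past Prelp (-0.78). The antisense gene Gm15851, which overlaps Prelp, had at most 0.108 CPM. On chromosome 10, Dcn and Lum fell together, while Kera had no reads in any library. On chromosome 13, Aspn, Omd and Ogn fell at day 3 along with Ecm2 (-1.34), whereas Cenpp (0.88), which spans them, and the flanking Ippk (0.47) and Nol8 (0.27) were not called, and Iars fell (-1.17).

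**Figure D4:**
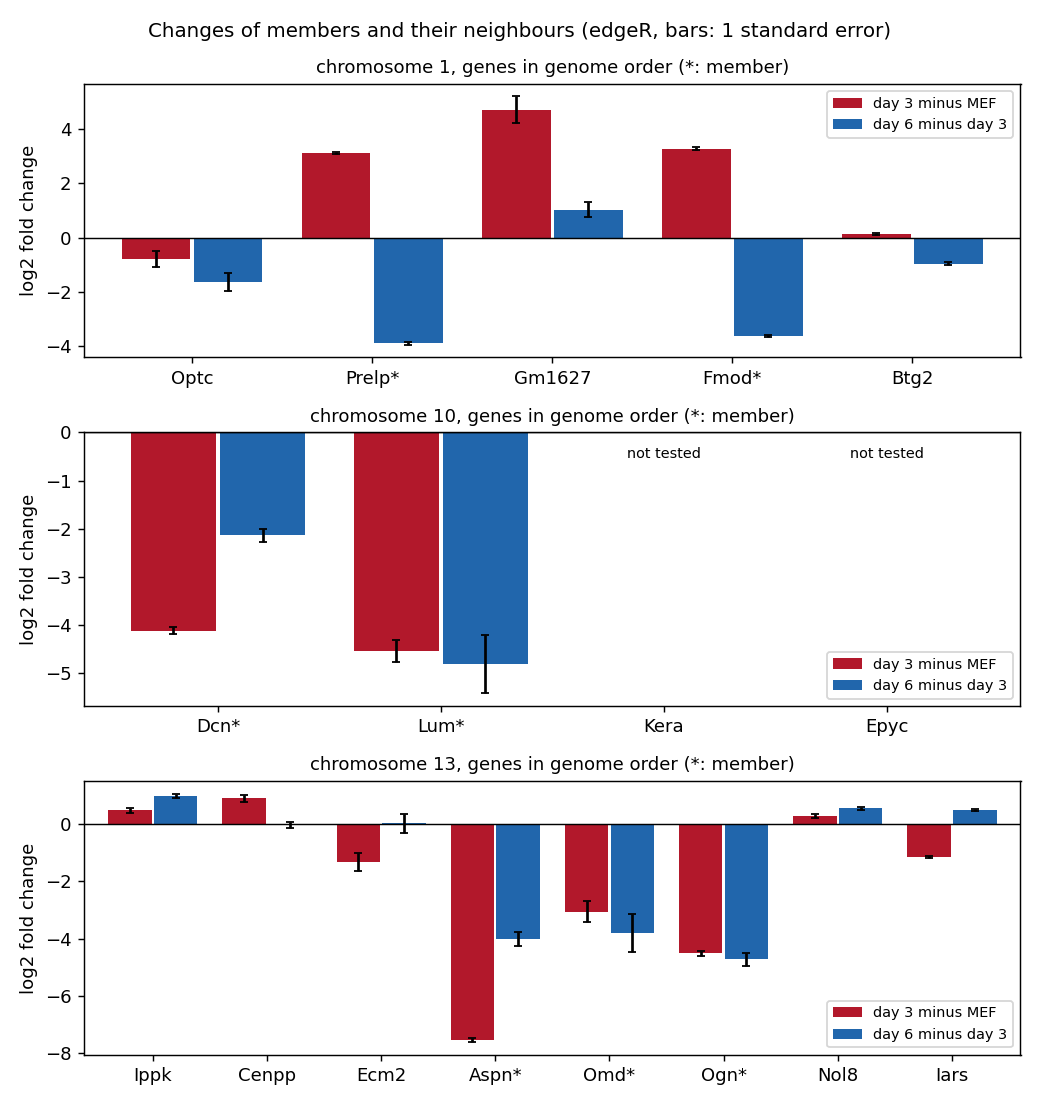
Log2 fold change from MEF to day 3 (red) and from day 3 to day 6 (blue) for members (starred) and their neighbours in genome order on chromosomes 1, 10 and 13, with bars of 1 standard error. Prelp and Fmod rise by 3.14 and 3.28 beside Btg2 at 0.13, and Aspn, Omd and Ogn fall beside Cenpp at 0.88; Kera and Epyc had too few reads to be tested.

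Profiles over the 10 libraries were compared by the root mean square difference of log2 CPM, each centred on its own mean. Among the 36 pairs of members, Fmod and Prelp were the closest at 0.51, followed by Dcn and Podn at 0.59 and Bgn and Ogn at 0.63, and Aspn and Fmod were farthest apart at 5.31. Among 9562 other protein-coding genes, the closest to both Fmod (0.70) and Prelp (0.49) was Col15a1, a collagen of basement membrane zones, with mean CPM of 152 in MEF, 643 at day 3 and 88.8 at day 6, then 19.1 at day 9 and 3.30 in ESC, and the next for both was C1qtnf7 (0.77 and 0.51). The closest to Bgn were Twist2, a mesenchymal transcription factor, at 0.31 and Col8a1 at 0.34, and those to Aspn were Col12a1 at 0.46 and Mfap4 at 0.66. Ogn lay closest to Kif26b at 0.34 and Csgalnact1 at 0.35, Dcn to Adh1 and Sfrp2 at 0.55 each, and Lum to Gas1 at 0.60 and Eln, the gene of elastin, at 0.65. Omd lay closest to Sema5a at 0.43 and Cxcl1 at 0.47, and Podn to Itm2a at 0.35 and Nfkbiz at 0.41. The libraries fall into 5 groups, so these distances describe 5 levels rather than 10 independent points.

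Of the 8 other genes of the family, 5 could be tested, and 4 of them were lower at day 9 than in MEF, against 19.8% of all tested genes. Podnl1, a relative of Podn, had 499 and 671 reads in MEF, 5 and 2 at day 3, none at day 6, 1 and 1 at day 9, and 60 and 75 in ESC, so it followed the course of Bgn, Aspn and Ogn. Its ESC to day 9 ratio was 66.8 (95% interval 18.2 to 558, counting error only). Tsku, the gene of tsukushi, which binds BMP ligands, stood at 11.2 and 11.1 TPM in MEF and 3.42 and 3.64 at day 3 (log2 fold change -1.70, SE 0.05, edgeR adjusted p = 1.1e-12). Optc, the gene of opticin, and Ecm2 were lower at day 9 than in MEF by log2 fold changes of -2.77 and -1.36, and Nyx was not called at -0.12. Kera, Epyc and Chad were too low to be tested, and none of the 5 tested genes was higher at day 3 than in MEF.

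RNA of the collagens that these proteins bind was also lower at day 9 than in MEF. All 14 listed genes of fibrillar, fibril-associated and type VI collagens were lower at day 9 than in MEF. Their median log2 fold change was -8.42, against 0.19 for all tested genes, and 12 of 14 were higher in ESC than at day 9. Of all tested genes, 19.8% were lower at day 9 than in MEF and 18.6% higher in ESC than at day 9. Col3a1, the largest change, went from 2490 TPM in MEF to 30.5 at day 3 and 0.957 at day 9, and to 134 in ESC, and Col1a1 from 3280 to 96.4, 0.618 and 320 TPM; the Col1a1 locus also carries the cassette in all but the ESC. Col12a1 fell from 262 TPM in MEF to 0.122 at day 9 and Col1a2 from 1330 to 1.27. At day 3, 12 of 14 collagen genes were lower than in MEF, against 14.5% of all tested genes. The 1 that rose was Col2a1, the cartilage collagen, by 1.44 (SE 0.06, edgeR adjusted p = 6.2e-11), named here after its value was seen. A list of 10 genes held proteases that process or cleave family members, together with the enhancer gene Pcolce. Of these, 8 could be tested and all 8 were lower at day 9 than in MEF. Pcolce, an enhancer of procollagen processing, went from 576 TPM in MEF to 208 at day 3 and 13.9 at day 9, the membrane protease Mmp14 from 178 to 8.56 at day 9, and Bmp1, which trims procollagens and probiglycan, from 55.2 to 4.13. Tll1 and Mmp13 had the largest changes, from 5.61 to 0.0315 TPM and from 0.603 to 0.00806 TPM. In ESC, 7 of these 8 were higher than at day 9.

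Genes for the enzymes that build the sugar chains moved in both directions. Of 22 genes for the chondroitin and dermatan sulfate chains that decorin and biglycan carry, 14 were lower, 2 higher and 6 not called at day 9 against MEF (median -1.53). Of all tested genes, 19.8% were lower and 24.1% higher in that comparison. Csgalnact1, which starts chondroitin chains, went from 10.3 TPM in MEF to 1.20 at day 3, 0.0672 at day 9 and 2.43 in ESC, and Chsy3 from 3.56 to 0.0169 at day 9, while the polymerizing factors Chpf and Chpf2 changed by -1.52 and -2.00 and the linkage enzyme gene B3gat3 was not called at -0.68. Of 8 genes for keratan sulfate, the chain of several class II members, 5 were higher and 2 lower at day 9 (median 1.35). Among them the extending enzyme genes B3gnt7, B3gnt2 and B4galt4 differed by 6.01, 1.31 and 1.39 from MEF, while B4galt1 fell by 2.47 on the log2 scale. The sulfotransferase gene Chst4, also called higher, had mean levels of 0.00395 TPM in MEF, 1.33 at day 6 and 0.630 at day 9, and was at 0 in ESC. B3gnt2 stood at a mean of 4.91 TPM in MEF, 17.9 at day 3, 17.0 at day 6 and 10.7 at day 9, so it was still high at day 6, when Fmod and Prelp had fallen. From day 9 to ESC, 8 chondroitin and dermatan sulfate genes were higher and 3 lower, and 3 keratan sulfate genes were higher and 3 lower (of all tested genes, 18.6% were higher and 14.3% lower).

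Of 17 genes for growth factors and receptors that members bind, 13 were lower, 2 higher and 2 not called at day 9 against MEF (median -1.85). The shares of all tested genes there were 19.8% lower and 24.1% higher. Wisp1, a secreted factor bound by Dcn and Bgn proteins, went from 67.1 TPM in MEF to 3.84 at day 3, 0.143 at day 9 and 8.74 in ESC, and the endocytic receptor gene Lrp1 from 225 to 37.6 TPM at day 9. P2rx7, an ATP receptor that takes part in biglycan signalling, moved the other way, from 1.12 TPM in MEF to 25.5 at day 3, 35.7 at day 6 and 21.2 at day 9, and 2.38 in ESC (log2 fold change 5.30 at day 9 against MEF, edgeR adjusted p = 1.7e-15). Erbb4 was called lower on 12 and 13 reads in MEF and none at day 9. Of 13 matrix proteoglycan genes outside the family, 7 were lower, 2 higher and 4 not called at day 9 (median -1.12). Vcan, the gene of the large proteoglycan versican, went from 344 TPM in MEF to 7.53 at day 3, 0.952 at day 9 and 18.9 in ESC, whereas the basement membrane genes Hspg2 and Agrn changed by only -1.12 and 0.55, and Spock2 rose by 5.51. In ESC, 4 of the 17 were higher than at day 9 and 3 lower, and 7 of the 13 were higher and 1 lower, where 18.6% of all tested genes were called higher and 14.3% lower; the shares of the 17 are near those.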

How the data were processed

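The authors deposited 1 transcript table per library, made with Salmon 0.8.2 against mm10, per the submitters' processing notes; other settings, and whether strand was used in counting, are not given in the sources used here. Per the file headers, each table gives an estimated count (the number of reads assigned to a transcript, not normalized) and a TPM value (corrected for effective length, with an equal total in every library) for 109617 transcripts. Effective lengths were identical in all 10 tables. Deposited TPM values and estimated counts were summed per gene (45706 genes, symbol and ID from the transcript names), and the summed counts were then rounded. In edgeR 4.0.16 (R 4.3.3), low genes were removed with filterByExpr (minimum count 10, minimum total 15), TMM factors were computed and the quasi-likelihood model took in all 10 libraries, so that the groups share 1 estimate of spread (common biological coefficient of variation 3.75%). Standard errors were derived from the log2 fold change and the F statistic. With 2 libraries against 2, an exact permutation test cannot give a two-sided p under 0.333, so none was run. Counting intervals are exact 95% intervals; a group without reads was set to a floor of 3 reads per library. Intervals and floors cover counting error only.

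Groups and replicate numbers came from the sample titles. Replicates of a group differed by more than sampling noise (chi-square per degree of freedom 2.82 to 5.18), so none was counted as a repeat run of the same library. This value cannot tell separate cultures from separate libraries of the same cells. All libraries carry 1 batch label. Alternatives were DESeq2 1.42.0, library-size scaling without TMM, no low-count filter, only the 2 groups compared, a replicate block, limma 3.58.1 on log2(TPM + 1) and on log2(TPM + 0.1), protein-coding transcripts only, no fold change minimum, and leaving out each library. In simulated counts for day 3 against MEF, the test called 97 of 100 genes changed by 4-fold. Its performance at read numbers as low as those of Lum and Omd at day 6 and day 9 was not tested.

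The named genes were the 9 members, the other genes of the family, the 3 highest by mean TPM and the 2 largest called changes from MEF to day 9 in each pathway list, and the 2 genes of most like profile for each member (at 20 CPM or more in a group mean, prior count 2). The members, lists and tests were chosen with earlier results of these data known. Coordinates are those of GENCODE M21 (GRCm38), in which all 9 members matched by gene ID. Comparisons of protein sequence were not run.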

Additional observations from a re-analysis of the deposited data

How the results depend on the processing

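No alternative changed the direction or the call of a member at day 3, at day 9 or in ESC against MEF. DESeq2, scaling without TMM, no low-count filter and the replicate block kept all 54 member calls; fits to only the 2 groups compared kept the 50 that they could test. Equal replicate numbers do not pair the libraries (mean correlation of deviations 1e-04 over 10 pairs of groups), and with the replicate block the count of members called lower at day 3 against MEF was 7, as without it. From day 3 to day 6, limma on log2(TPM + 1) called 5 members lower instead of 9, with Aspn, Lum, Omd and Podn at -0.83, -0.41, -0.29 and -0.66 on a scale that shrinks low genes. From day 6 to day 9, 1 member was called lower with protein-coding transcripts only instead of 2, and with no fold change minimum 3 were called lower (Bgn added, -0.48) and 1 higher (Dcn) instead of 0; leaving out a library gave 0 to 1 higher (Dcn, without day 6 replicate 1 or day 9 replicate 2). From MEF to day 9, DESeq2 called 1 chondroitin and dermatan sulfate gene and 1 ligand or receptor gene higher instead of 2 each, and leaving out a library gave 1 to 2 ligand or receptor genes higher (1 without MEF replicate 1). From day 9 to ESC, leaving out a library gave 0 to 1 other family gene lower (1 without day 9 replicate 2).

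Reversals were limited to members that were not called. From day 6 to day 9, Lum (-3.72; -4.65 to 0.00 over the fits without a library) was at 0.00 without day 6 replicate 1, Omd (-0.06) was at 0.00 under limma on log2(TPM + 1), 0.45 without day 6 replicate 1 and 1.05 without day 9 replicate 2 (-3.73 to 1.05 over such fits), and Ogn (0.39) was at -0.11 without day 6 replicate 2 (-0.11 to 1.21). From day 9 to ESC, Omd (0.36) was at -0.75 without day 9 replicate 2 and -0.49 without ESC replicate 2 (-0.75 to 4.03), and Podn (-0.15) was at 0.44 and 0.90 under limma on log2(TPM + 1) and log2(TPM + 0.1), 0.05 with protein-coding transcripts only and 0.03 without ESC replicate 1 (-0.37 to 0.03). For Podn the cause was not tested. The other members here had 0 to 13 reads in the libraries involved, and depth limits what can be shown of them.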

Other observations

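Dcn had 2 annotated transcripts in the deposited tables, and the share of reads assigned to each differed between groups. Dcn-202 took 18.5% and 6.0% of Dcn reads in MEF, 25.1% and 0% at day 3, and 0% in both day 6 and both ESC libraries, but 71.1% and 87.2% in the day 9 libraries. In GENCODE M21, transcripts of these names start at bases 97479609 (Dcn-201) and 97482367 (Dcn-202) of chromosome 10. They were not matched by transcript ID, and Dcn-201 has 1886 bases as deposited and 1758 in M21. Dcn had 123 and 139 reads in those day 9 libraries and 74 and 56 at day 6. The estimate rests on those single-end reads of 50 nt that tell the 2 transcripts apart, no interval comes with it, and the difference was not tested. Shares also shifted in Aspn and Podn. Aspn-201 held 89.2% and 87.2% of Aspn reads in MEF, 0% in both day 6 libraries and in day 9 replicate 1, and 100% in day 9 replicate 2, on 6 to 16 reads a library at day 6 and day 9. Podn-201 ran from 0% to 81.5% of Podn reads and Podn-002 from 0% to 95.2%, also between libraries of 1 group. By contrast, Fmod-001 held at least 99.9% of Fmod reads, Prelp-001 92.8% to 100% of Prelp reads and Bgn-001 81.7% to 90.4% of Bgn reads in every library. In TPM the part of Bgn-001 was smaller, at 1229 and 1197 in MEF against a mean of 2830 for the gene.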
